A study of Homo sapiens with 12 samples.

Results

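The genes described here encode carriers that move amino acids across the plasma membrane: SLC7A5, SLC7A1, SLC7A6, SLC3A2, SLC1A4, SLC1A5, SLC38A1, SLC38A2, SLC6A9 and SLC43A1. They were taken by name, with earlier results of these data known. All 10 were among the 17786 genes of the count table, and all 10 were among the 13598 genes with enough counts to be tested. Messenger RNA was sequenced from K562, an established human cell line from a chronic myelogenous leukemia that carries erythroid features. There were 4 libraries of untreated cells, 4 of cells given 2 mM alpha-ketobutyrate (AKB) and 4 of cells given 2 mM pyruvate, both for 24 h. All 3 groups were the same line, kept in serum-supplemented medium with glutamine, and no genetic change is named for any of them. Pyruvate and AKB are alpha-keto acids, and AKB has a longer carbon chain by a methylene group. Both can be reduced by lactate dehydrogenase in a reaction that turns NADH into NAD+. A sole cell line is the model, so the values hold for that line.

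Amino acids cross the plasma membrane through carriers that differ in what they carry and in what drives them. Exchangers such as SLC7A5 and SLC1A5 swap an amino acid outside for another inside. Sodium-coupled importers such as SLC38A1 and SLC38A2 load the cell with small neutral amino acids, among them glutamine. SLC3A2 is a heavy chain that brings SLC7-family light chains to the surface and carries no amino acid itself. Transcription of many of these genes is known to follow ATF4, a factor made when amino acids are short or other stresses slow translation. ATF4 binds, together with C/EBP proteins, a composite DNA element that is also present in the promoter of ASNS, the asparagine synthetase gene.

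Total estimated counts ran from 15353200 to 21301073 per library. The 8 erythroid markers were all measured and summed to 13530 to 15350 CPM, the counts scaled to library size, in untreated cells, 14770 to 16700 with AKB and 11120 to 13100 with pyruvate. Of 5 lymphoid markers 4 were in the table, with a sum of 2.70 to 3.68, 4.24 to 4.92 and 3.91 to 4.70 CPM in the same order. The 4 monocyte markers summed to 30.5 to 37.7, 42.2 to 52.9 and 28.7 to 36.4 CPM. Nearly all of that was LYZ, and CD14, FCGR3A and CSF1R were each under 1 CPM. Of 4 epithelial markers 2 were in the table, and their sum of 80.6 to 106 CPM over all libraries was nearly all EPCAM. The erythroid markers did not move alike by edgeR's quasi-likelihood test. HBE1 was called higher with AKB (edgeR adjusted p = 0.00146), as was LYZ (edgeR adjusted p = 0.0308), where 1.37% of all genes tested were. With pyruvate HBG1 and HBG2 were called lower (edgeR adjusted p = 0.0489 and 0.0206), where 0.927% of all genes tested were. Of the 8 erythroid markers, 6 had a log2 fold change below 0 with pyruvate. KLF1 and GATA1, at 0.79 and 0.35, did not pass. The part of these markers in the results was not tested, and in bulk RNA fewer cells of a type and less RNA per cell cannot be told apart. Pyruvate replicates 3 and 4 stood apart from replicates 1 and 2. Across 13047 genes, their difference followed the GC content of the transcript, with a Spearman's rho of 0.772 across genes, which are not independent replicates. The fold changes of pyruvate over untreated are therefore given with and without them. Whether replicate libraries stem from separate cultures is not said in the labels. The p-values therefore speak only of the spread among these libraries, possibly a technical one.

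The carriers ranged widely in abundance. Divided by the length of the longest annotated transcript, SLC1A5 had the highest level in untreated cells, at 171 ± 11.9 CPM per kb (SD, n = 4). SLC38A2 followed at 109 ± 5.08 and SLC3A2 at 107 ± 2.02 CPM per kb, and the libraries of this pair overlapped. Below them came SLC7A5 at 78.7 ± 3.70 and SLC38A1 at 60.5 ± 2.93 CPM per kb. SLC7A1 at 26.0 ± 0.680 and SLC7A6 at 23.8 ± 1.69 CPM per kb formed a lower step. The lowest were SLC43A1 at 16.8 ± 0.439, SLC1A4 at 13.3 ± 0.108 and SLC6A9 at 9.36 ± 1.16 CPM per kb. Apart from SLC38A2 and SLC3A2, no neighbours in this order overlapped. With all annotated exons merged as the length, SLC3A2 moved from rank 3 to rank 5. With AKB the order was the same except that SLC7A6, at 22.3 ± 1.89 CPM per kb, stood above SLC7A1, at 18.4 ± 1.05. That exchange was also seen with pyruvate, at 23.5 ± 1.46 and 18.8 ± 0.891 CPM per kb. SLC3A2 and SLC38A2 lay level with pyruvate, at 77.7 ± 7.81 and 77.5 ± 17.6 CPM per kb.

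Summed over the 10 genes, the level was 2598 ± 41.6 CPM in untreated cells (SD, n = 4), 2016 ± 37.6 with AKB and 2026 ± 70.5 with pyruvate. The untreated libraries lay between 2556 and 2652 CPM, above the AKB libraries, at 1977 to 2060, and the pyruvate libraries, at 1922 to 2072. Pyruvate replicates 1 and 2 were at 2068 and 1922 CPM and replicates 3 and 4 at 2041 and 2072. With AKB, 4 of the 10 fell and 0 rose by edgeR's quasi-likelihood test at an adjusted p below 0.05, where 0.603% of all genes tested were called lower and 1.37% higher. At an unadjusted p below 0.05 there were 7, all lower. The share of all genes at that cut-off was not counted, so the percentages given here do not apply to it. DESeq2 called 5 lower, where it called 1.40% of all genes lower, and limma-voom 4, where it called 0.574%. Their median log2 fold change was -0.36, against 0.01 over all genes tested. With pyruvate, 5 of the 10 fell and 0 rose by edgeR, where 0.927% of all genes tested were called lower and 1.02% higher. Here too 7 had an unadjusted p below 0.05, all lower, again with no share of all genes at that cut-off. DESeq2 called 7 lower, where it called 6.12% of all genes lower, and limma-voom 5, where it called 0.956%. The median was -0.45, against -0.01 over all genes. SLC7A1, SLC3A2 and SLC1A4 fell under both treatments. SLC7A5 passed the test with AKB only, and SLC38A1 and SLC43A1 passed it with pyruvate only. When each comparison was fitted to its own 8 libraries, 7 fell with AKB, where 4.75% of all genes were called lower, and 2 with pyruvate, SLC1A4 and SLC7A1, where 0.105% were. In that fit SLC3A2 had an edgeR adjusted p of 0.0871 with pyruvate, and SLC38A1 and SLC43A1 one of 0.119. Both comparisons use the same 4 untreated libraries, so they are not independent of each other.

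**Figure D1:**
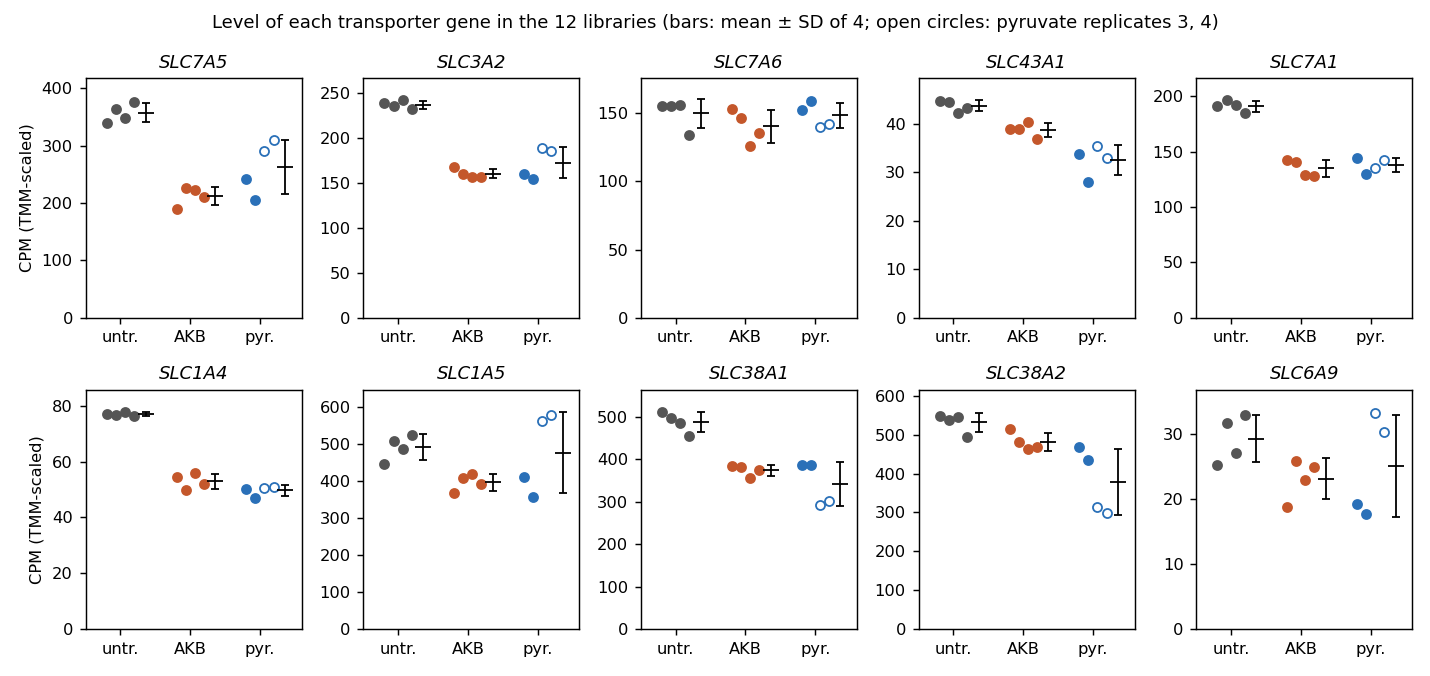
Level of each transporter in CPM (y axes, linear and starting at 0) in every library of the untreated, AKB and pyruvate groups, with the mean and SD of 4 libraries; open circles mark pyruvate replicates 3 and 4. SLC7A1 and SLC1A4 lie lower in every treated library than in any untreated one, while SLC1A5 and SLC6A9 divide the pyruvate group, with 563 and 578 CPM of SLC1A5 in the open circles against 411 and 356 in the others.

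Short stretches of promoter are printed for the members whose window held the core of the composite element, so that the calls can be set beside it. Windows of 300 bases, 250 before and 50 after each annotated start, came from RefSeq on GRCh38.p14, and all 10 members matched, with 17 windows. The core was searched as TGATGNAA on both strands. It was present in 5 of the 17 windows (29.4%), in 5 different members, and in 1270 of all 35116 windows (3.62%). The capitals mark the match, on the strand of the gene, 5′ to 3′. ASNS is printed for reference.
SLC7A1: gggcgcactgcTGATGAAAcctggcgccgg
SLC38A1: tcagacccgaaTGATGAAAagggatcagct
SLC1A5: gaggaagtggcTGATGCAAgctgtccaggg
SLC1A4: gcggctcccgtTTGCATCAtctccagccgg
SLC3A2: tgcaggactccTTACATCAgctcc
ASNS: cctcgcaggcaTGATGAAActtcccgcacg
The stretch of SLC7A1 lies at chr13:29595663-29595692 on the minus strand, that of SLC38A1 at chr12:46266502-46266531 on the minus strand, and that of SLC1A5 at chr19:46784893-46784922 on the minus strand. The stretch of SLC1A4 lies at chr2:64989381-64989410 and that of SLC3A2 at chr11:62881725-62881748, both on the plus strand, where the capitals read as the reverse complement of the core. That of ASNS lies at chr7:97872458-97872487 on the minus strand. The match began 7 bases after the start base in SLC7A1 and 37 after it in SLC3A2. It began 7 bases before the start base in SLC1A4, 4 before it in SLC38A1, 97 before it in SLC1A5 and 68 before it in ASNS. Each distance is to the start of the window with the match. For SLC3A2, SLC1A4, SLC38A1 and SLC1A5 that start lies inside the annotated gene, and their other windows held no match. Of the 5 members with a match, SLC7A1, SLC3A2 and SLC1A4 fell under both treatments and SLC38A1 with pyruvate, while SLC1A5 passed neither test. SLC7A5 and SLC43A1 passed a test and held no match in these windows. SLC7A6, SLC38A2 and SLC6A9 held no match and passed neither test. The calls are those of edgeR's fit to all 12 libraries, and they differ in other fits, as for SLC1A5. The letters CACGTG, the E-box that MYC and related factors bind, were in 3 of the 17 windows (17.6%) and in 7.26% of all windows. A match is a description of the letters and says nothing of binding.

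The heavy chain and its main light chain were both lower in treated cells. SLC7A5 (ENSG00000103257, GRCh38 chr16:87830023-87869488, minus strand), also called LAT1, imports leucine and other large neutral amino acids in exchange for amino acids inside the cell. It measured 339, 364, 348 and 377 CPM in untreated replicates 1 to 4, 190, 226, 222 and 211 with AKB, and 242, 206, 290 and 310 with pyruvate. Every treated library was below every untreated one, and the pyruvate group was spread more widely than the AKB group. With AKB SLC7A5 fell 1.68-fold, a log2 fold change of -0.75 ± 0.11 (SE, n = 4 against 4; edgeR adjusted p = 0.00526). With pyruvate the log2 fold change was -0.45 ± 0.11, which did not pass (edgeR adjusted p = 0.0569). It was -0.67 and passed without pyruvate replicates 3 and 4 (edgeR adjusted p = 0.00312), and with an offset for GC content it was -0.71 and passed (edgeR adjusted p = 2.23e-06). The pseudogenes SLC7A5P1 and SLC7A5P2, which are close copies of SLC7A5, held at most 2.84 CPM each in any library, so reads placed on them were few.

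SLC3A2 (ENSG00000168003, chr11:62856102-62888875, plus strand) measured 239, 236, 243 and 232 CPM in untreated cells, 168, 160, 157 and 157 with AKB, and 161, 155, 189 and 186 with pyruvate. The untreated libraries were tightly grouped and no treated library reached them. SLC3A2 fell 1.48-fold with AKB (log2 fold change -0.56 ± 0.07 SE, edgeR adjusted p = 0.00155). It fell 1.38-fold with pyruvate (log2 fold change -0.46 ± 0.07 SE, edgeR adjusted p = 0.00859). Without untreated replicate 1 the pyruvate difference no longer passed (edgeR adjusted p = 0.0581). It was -0.59 without pyruvate replicates 3 and 4 (edgeR adjusted p = 8.35e-05).

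SLC7A6 (ENSG00000103064, chr16:68264516-68301823, plus strand), another light chain of SLC3A2, exchanges cationic amino acids such as arginine for neutral ones together with sodium. It measured 156, 155, 156 and 134 CPM in untreated cells, 154, 146, 126 and 136 with AKB, and 153, 159, 140 and 142 with pyruvate. The 3 groups overlapped. Neither difference passed: the log2 fold change was -0.10 with AKB (95% interval -0.27 to 0.07, edgeR adjusted p = 0.665) and -0.02 with pyruvate (95% interval -0.19 to 0.15, edgeR adjusted p = 0.884). These intervals lie above the fold changes estimated for SLC3A2. The pyruvate value was 0.05 without pyruvate replicates 3 and 4 (edgeR adjusted p = 0.831). Exons of SLC7A6 overlap those of SLC7A6OS on the opposite strand, and no source used here states whether counting used strand. The same holds for SLC7A5 with AC126696.2, SLC1A5 with AC008622.2, and SLC6A9 with CCDC24, so reads of the partners cannot be told apart.

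SLC43A1 (ENSG00000149150, chr11:57484534-57515786, minus strand), also called LAT3, lets large neutral amino acids pass by facilitated diffusion and needs no heavy chain. It measured 44.8, 44.6, 42.4 and 43.3 CPM in untreated cells, 39.0, 38.9, 40.4 and 36.9 with AKB, and 33.8, 28.1, 35.4 and 33.0 with pyruvate. The 3 groups did not overlap, and the pyruvate libraries were the lowest. With pyruvate SLC43A1 fell 1.34-fold (log2 fold change -0.43 ± 0.07 SE, edgeR adjusted p = 0.0206). With AKB the log2 fold change was -0.17 (95% interval -0.33 to -0.01) and did not pass (edgeR adjusted p = 0.331). The pyruvate difference did not pass without untreated replicate 1, 2 or 3 or without pyruvate replicate 4, with edgeR adjusted p up to 0.0921. Without both pyruvate replicates 3 and 4 it passed, at a log2 fold change of -0.50 (edgeR adjusted p = 0.0117).

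SLC7A1 (ENSG00000139514, chr13:29509410-29595688, minus strand), also called CAT1, is the main importer of arginine and lysine in many cells. It measured 191, 197, 193 and 185 CPM in untreated cells, 142, 141, 129 and 128 with AKB, and 144, 130, 135 and 142 with pyruvate. The treated groups lay in the same range as each other, and both lay wholly below the untreated group. SLC7A1 fell 1.42-fold with AKB (log2 fold change -0.50 ± 0.06 SE, edgeR adjusted p = 0.00122) and 1.39-fold with pyruvate (log2 fold change -0.47 ± 0.06 SE, edgeR adjusted p = 0.00290). The pyruvate value was -0.48 without pyruvate replicates 3 and 4 (edgeR adjusted p = 0.00405). Its transcript has a GC content of 52.7%, and pyruvate replicates 3 and 4 differed from 1 and 2 by 0.01 on the log2 scale.

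SLC1A4 and SLC1A5 are paralogs that exchange small neutral amino acids with the help of sodium. SLC1A4 (ENSG00000115902, chr2:64988477-65023865, plus strand), also called ASCT1, carries alanine, serine and cysteine. It measured 77.2, 76.8, 77.9 and 76.4 CPM in untreated cells, 54.5, 49.7, 55.8 and 51.9 with AKB, and 50.2, 47.0, 50.6 and 51.0 with pyruvate. These were the tightest untreated values of the 10 genes, relative to their mean, and no treated library came near them. SLC1A4 fell 1.46-fold with AKB (log2 fold change -0.54 ± 0.06 SE, edgeR adjusted p = 0.000914) and 1.55-fold with pyruvate (log2 fold change -0.63 ± 0.06 SE, edgeR adjusted p = 0.000219). The pyruvate value was -0.67 without pyruvate replicates 3 and 4 (edgeR adjusted p = 0.000258).

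SLC1A5 (ENSG00000105281, chr19:46774883-46788594, minus strand), also called ASCT2, is a major route for glutamine. It measured 446, 510, 487 and 524 CPM in untreated cells, 367, 410, 420 and 391 with AKB, and 411, 356, 563 and 578 with pyruvate. The AKB libraries all lay below the untreated ones, while the pyruvate libraries lay on both sides, with replicates 3 and 4 the highest of all 12. Neither difference passed: the log2 fold change was -0.31 with AKB (95% interval -0.60 to -0.02, edgeR adjusted p = 0.338) and -0.04 with pyruvate (95% interval -0.33 to 0.25, edgeR adjusted p = 0.835). When pyruvate replicates 3 and 4 were left out, the AKB difference passed (edgeR adjusted p = 0.0138), and the pyruvate difference was -0.36 and did not (edgeR adjusted p = 0.0678). With the GC offset both passed, at -0.40 for AKB (edgeR adjusted p = 3.44e-05) and -0.32 for pyruvate (edgeR adjusted p = 0.000228). The authors' deposited table gives a log2 fold change of -0.39 for SLC1A5 with pyruvate, turned here as pyruvate over untreated, with an adjusted p of 1.21e-15.

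SLC38A1 and SLC38A2 are neighbouring paralogs on the minus strand of chromosome 12 that import small neutral amino acids with sodium. SLC38A1 (ENSG00000111371, chr12:46183063-46270017) measured 511, 498, 486 and 456 CPM in untreated cells, 385, 381, 357 and 374 with AKB, and 387, 388, 292 and 302 with pyruvate. No treated library overlapped the untreated group, and pyruvate replicates 3 and 4 were the lowest. With pyruvate SLC38A1 fell 1.43-fold (log2 fold change -0.51 ± 0.09 SE, edgeR adjusted p = 0.0206), and without those replicates the log2 fold change was -0.33 and still passed (edgeR adjusted p = 0.0130). It did not pass without pyruvate replicate 4 alone or without untreated replicate 1, 2 or 3, with edgeR adjusted p up to 0.0939. With AKB the log2 fold change was -0.38 ± 0.09 and did not pass (edgeR adjusted p = 0.0575). It did pass without pyruvate replicates 3 and 4 in the fit, whose spread is shared by all groups (edgeR adjusted p = 0.000416), and with the GC offset (edgeR adjusted p = 0.000159).

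SLC38A2 (ENSG00000134294, chr12:46358189-46372867), a carrier known to be induced by amino acid shortage, measured 548, 539, 546 and 495 CPM in untreated cells, 514, 482, 464 and 467 with AKB, and 468, 435, 313 and 298 with pyruvate. AKB overlapped the untreated group and pyruvate did not. Neither difference passed: the log2 fold change was -0.14 with AKB (95% interval -0.42 to 0.13, edgeR adjusted p = 0.699) and -0.49 with pyruvate (95% interval -0.76 to -0.22, edgeR adjusted p = 0.0611). The pyruvate value was -0.24 without pyruvate replicates 3 and 4 and did not pass (edgeR adjusted p = 0.0965), and with the GC offset it was -0.27 and passed (edgeR adjusted p = 0.00319).

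SLC6A9 (ENSG00000196517, chr1:43991500-44031467, minus strand), also called GlyT1, imports glycine with sodium and chloride and serves haem synthesis in erythroid cells. It measured 25.4, 31.8, 27.2 and 32.9 CPM in untreated cells, 18.8, 25.9, 23.0 and 25.01 with AKB, and 19.2, 17.7, 33.3 and 30.3 with pyruvate. Pyruvate replicates 1 and 2 were below every untreated library, replicates 3 and 4 were not, and the AKB group overlapped the untreated group by a narrow margin. Neither difference passed: the log2 fold change was -0.34 with AKB (95% interval -0.76 to 0.08, edgeR adjusted p = 0.499) and -0.22 with pyruvate (95% interval -0.63 to 0.20, edgeR adjusted p = 0.440). With the GC offset both passed, at -0.42 for AKB (edgeR adjusted p = 0.0262) and -0.47 for pyruvate (edgeR adjusted p = 0.0161). Without pyruvate replicates 3 and 4 the pyruvate value was -0.67 (edgeR adjusted p = 0.0587).

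**Figure D2:**
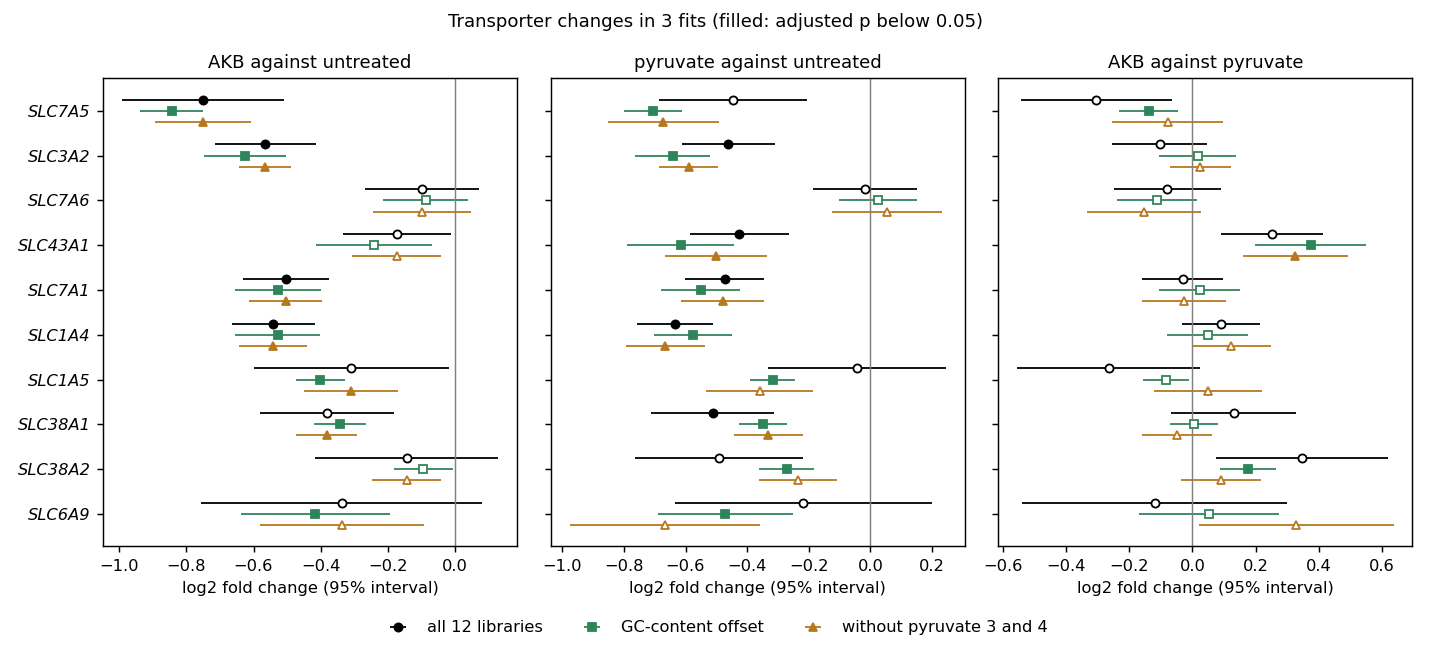
Log2 fold change of each transporter with its 95% interval (x axes) for AKB over untreated, pyruvate over untreated and AKB over pyruvate, from edgeR's fit to all 12 libraries (circles), with the GC offset (squares) and without pyruvate replicates 3 and 4 (triangles); filled symbols have an adjusted p below 0.05. With all 12 libraries every estimate against untreated lies below 0, from -0.75 for SLC7A5 with AKB to -0.02 for SLC7A6 with pyruvate.

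Groups of 4 without overlap gave another count of the same values. With AKB 7 of the 10 lay wholly below the untreated libraries, where 8.41% of all genes tested did. Those were SLC7A5, SLC3A2, SLC7A1, SLC1A4, SLC1A5, SLC38A1 and SLC43A1. With pyruvate 7 of the 10 did, where 6.00% of all genes did, and SLC38A2 took the place of SLC1A5. Pyruvate replicates 1 and 2 alone, a choice made after seeing the data, lay below all untreated libraries for 9 of the 10, all but SLC7A6, where 11.3% of all genes did.

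Within the pyruvate group, the position of a transporter between replicates 1 and 2 and replicates 3 and 4 followed the GC content of its transcript. SLC38A2, at 38.1% GC, differed by -0.56 on the log2 scale in replicates 3 and 4, and SLC38A1, at 41.3%, by -0.38, both lower there. SLC1A5, at 61.3% GC, was higher by 0.58 in them, SLC7A5, at 61.1%, by 0.43, and SLC6A9, at 59.6%, by 0.78. SLC1A4, SLC7A6 and SLC7A1, at 46.5% to 52.7%, lay between -0.15 and 0.07, and SLC43A1 and SLC3A2, at 58.2% and 57.4%, stood at 0.15 and 0.25. Over the 10 genes Pearson's r was 0.917 and Spearman's rho 0.915, as a description of genes that share these 4 libraries. The median of all genes of like GC content was -0.47 beside SLC38A2 and 0.59 beside SLC1A5. It was 0.38 beside both SLC6A9, which stood higher, and SLC43A1, which stood lower. With the GC offset 7 of the 10 were called lower with AKB, where 3.82% of all genes were, and 9 with pyruvate, where 4.09% were. SLC7A6 was the one not called lower with pyruvate. Without pyruvate replicates 3 and 4, 6 were called lower with AKB, where 4.31% of all genes were, and 6 with pyruvate, where 0.560% were.

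**Figure D3:**
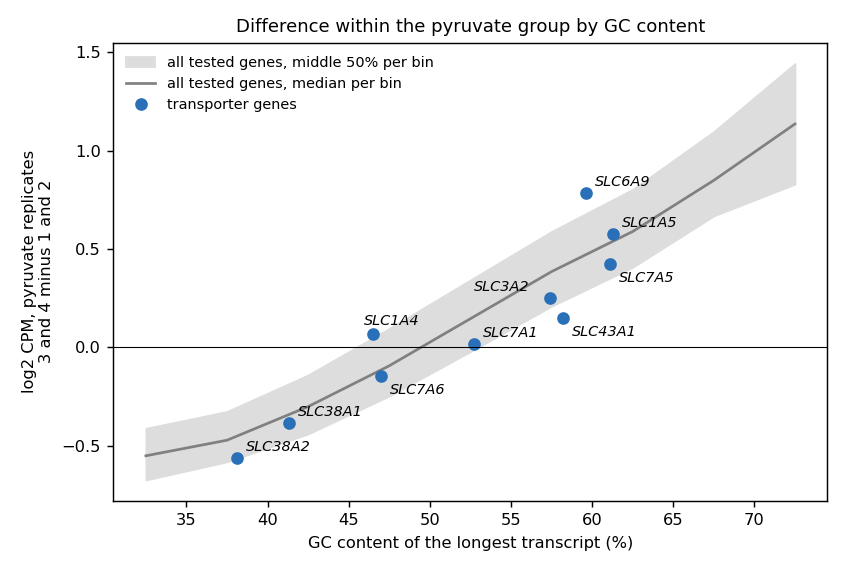
Difference on the log2 scale between pyruvate replicates 3 and 4 and pyruvate replicates 1 and 2 (y axis) against transcript GC content in percent (x axis) for the 10 transporters, with the median (line) and the middle 50% (band) of all tested genes in bins of GC content. The points run from -0.56 for SLC38A2 at 38.1% GC to 0.78 for SLC6A9 at 59.6% GC, with SLC6A9 above the band of its bin, whose median is 0.38, and SLC43A1 below it at 0.15.

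The compounds were given at the same dose and for the same time, so their libraries could be compared directly, as 1 pair of compounds. Of the 10 transporters 0 passed between AKB and pyruvate by edgeR's quasi-likelihood test, where 3.13% of all genes tested were called in either direction. At an unadjusted p below 0.05 there were 3, with no share of all genes counted at that cut-off. By limma-voom 0 were called, where 3.10% of all genes were. DESeq2's Wald test called 1, SLC43A1, where it called 12.2% of all genes, a share near that of the members. For SLC7A1 the log2 difference of AKB over pyruvate was -0.03, with a 95% interval of -0.16 to 0.10. For SLC1A4 it was 0.09, with an interval of -0.03 to 0.22, and for SLC3A2 it was -0.10, with an interval of -0.25 to 0.05. The intervals of SLC7A5 (-0.54 to -0.06, estimate -0.30, edgeR adjusted p = 0.127), SLC38A2 (0.07 to 0.62, estimate 0.35, edgeR adjusted p = 0.125) and SLC43A1 (0.09 to 0.41, estimate 0.25, edgeR adjusted p = 0.0762) lay off 0. Without pyruvate replicates 3 and 4 the estimates of SLC7A5 and SLC38A2 were -0.08 and 0.09. SLC43A1 was higher in every AKB library than in any pyruvate library, as 7.08% of all genes were. Its difference was 0.33 without those replicates and it passed (edgeR adjusted p = 0.0389), the sole member to do so, where 4.36% of all genes were called. With the GC offset 3 passed, where 14.6% of all genes did. They were SLC7A5 at -0.14 (edgeR adjusted p = 0.0497), SLC38A2 at 0.18 (edgeR adjusted p = 0.0144) and SLC43A1 at 0.37 (edgeR adjusted p = 0.0108).

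Ratios between partners within a library do not depend on how libraries are scaled. A trend with GC content can still enter them where partners differ in it. SLC1A4 and SLC1A5 have 46.5% and 61.3% GC, and SLC7A6 and SLC7A5 have 47.0% and 61.1%. The ratios were not taken with the GC offset. The ratio of SLC7A5 to SLC3A2, light over heavy chain, was 1.42, 1.54, 1.44 and 1.62 in untreated cells, 1.13, 1.42, 1.41 and 1.35 with AKB, and 1.51, 1.33, 1.54 and 1.67 with pyruvate. The AKB libraries lay below the untreated ones by a small margin, and the pyruvate libraries overlapped them. The difference was -0.19 on the log2 scale with AKB (two-sided exact permutation p = 0.0286, adjusted p = 0.0571 over 8 tests) and 0.00 with pyruvate (exact permutation p = 0.943, adjusted p = 0.971). With 4 libraries against 4, a p of 0.0286 is the smallest this test can give.

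The ratio of SLC7A6 to SLC7A5, the light chains, was 0.422 ± 0.0462 in untreated cells (SD, n = 4), 0.667 ± 0.100 with AKB and 0.586 ± 0.147 with pyruvate. The AKB libraries, from 0.569 to 0.807, all lay above the untreated ones, which reached 0.459, while the lowest pyruvate library was at 0.458. The log2 difference was 0.65 with AKB (exact permutation p = 0.0286, adjusted p = 0.0571) and 0.45 with pyruvate (exact permutation p = 0.0571, adjusted p = 0.0762). Among the paralogs, SLC1A4 over SLC1A5 was 0.157 ± 0.0121 in untreated cells, 0.134 ± 0.0111 with AKB and 0.108 ± 0.0223 with pyruvate. Its log2 difference was -0.23 with AKB (exact permutation p = 0.0571, adjusted p = 0.0762) and -0.56 with pyruvate (exact permutation p = 0.0286, adjusted p = 0.0571). Pyruvate replicates 3 and 4 were at 0.0898 and 0.0883, below replicates 1 and 2 at 0.122 and 0.132. SLC38A2 over SLC38A1 was 1.09 ± 0.0218 in untreated cells, 1.29 ± 0.0383 with AKB and 1.10 ± 0.0939 with pyruvate. That ratio was higher in 4 of 4 AKB libraries than in any untreated one, by 0.24 on the log2 scale (exact permutation p = 0.0286, adjusted p = 0.0571). With pyruvate its log2 difference was 0.01 (exact permutation p = 0.971, adjusted p = 0.971). None of the 8 ratio tests passed after adjustment. Those at the smallest possible p of 0.0286 had an adjusted p of 0.0571 by the exact permutation test. A pair whose groups did not overlap thus could not pass on its own, and not passing does not show an unchanged ratio. Leaving out pyruvate replicates 3 and 4, the log2 differences with pyruvate were -0.09 for SLC7A5 over SLC3A2, 0.73 for SLC7A6 over SLC7A5, -0.31 for SLC1A4 over SLC1A5 and 0.10 for SLC38A2 over SLC38A1, where 2 libraries against 4 are too few for the exact test to reach 0.05.

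**Figure D4:**
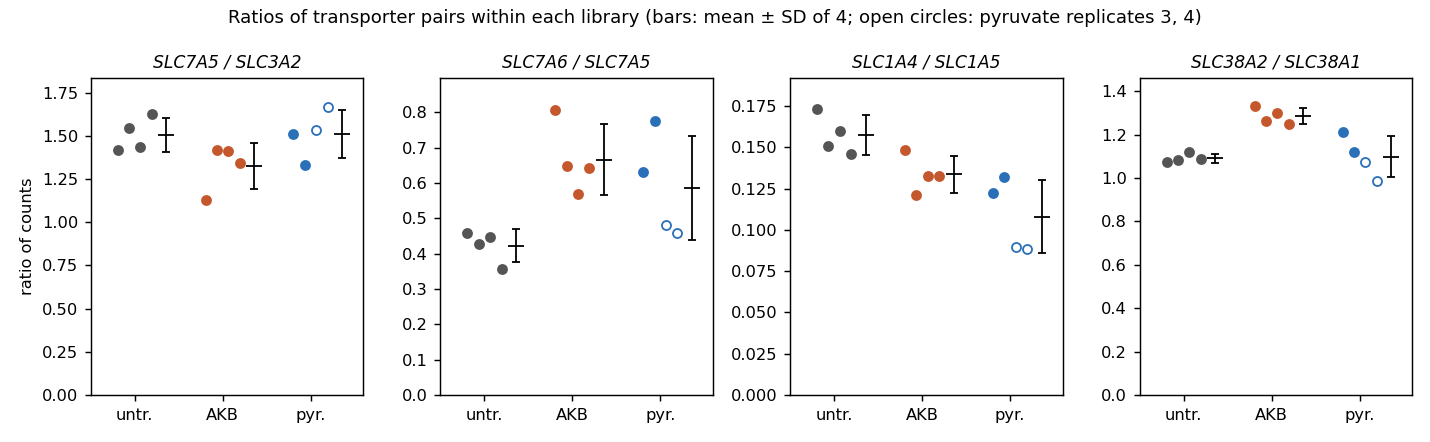
Ratio of counts within each library for 4 pairs of transporters (y axes, linear and starting at 0) in the 3 groups, with the mean and SD of 4 libraries; open circles mark pyruvate replicates 3 and 4. SLC38A2 over SLC38A1 stands at 1.25 to 1.33 with AKB against 1.07 to 1.12 in untreated cells, and the pyruvate libraries of SLC1A4 over SLC1A5 fall into a higher and a lower pair.

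The other carriers of amino acids were counted in the same way. Of 29 further genes listed as plasma membrane carriers of amino acids and related compounds, 13 were in the table and 10 were tested. In edgeR's fit to all 12 libraries SLC7A11 was the only one to pass, and it did so with both treatments. That fit called 1.97% of all genes in either direction with AKB and 1.95% with pyruvate. It encodes the light chain of the cystine and glutamate exchanger, which also pairs with SLC3A2. It measured 113, 103, 104 and 93.1 CPM in untreated cells, 65.1, 58.4, 61.6 and 57.0 with AKB, and 53.4, 47.4, 38.4 and 35.0 with pyruvate. SLC7A11 fell 1.71-fold with AKB (log2 fold change -0.77 ± 0.12 SE, edgeR adjusted p = 0.00646) and 2.37-fold with pyruvate (log2 fold change -1.25 ± 0.12 SE, edgeR adjusted p = 0.000366). The pyruvate value was -1.03 without pyruvate replicates 3 and 4 (edgeR adjusted p = 0.000196). DESeq2 also called SLC38A5, a sodium-coupled importer of small neutral amino acids, lower with AKB (DESeq2 adjusted p = 0.0494), where it called 1.40% of all genes lower. Leaving out pyruvate replicates 3 and 4, edgeR called 4 with AKB, where 9.17% of all genes were called in either direction. SLC7A11 and SLC38A5 were lower, and SLC7A8, another light chain of SLC3A2, and SLC6A6, a taurine carrier, were higher. The median log2 fold change of the 10 tested genes was 0.07 with AKB and 0.03 with pyruvate. Of 9 lysosomal amino acid transporters 8 were tested. By edgeR, 0 passed with either treatment, and DESeq2 and limma-voom called 0. By edgeR 0 had an unadjusted p below 0.05, with no share of all genes counted at that cut-off. Of 11 mitochondrial amino acid carriers 9 were tested. There edgeR, DESeq2 and limma-voom called 0 with either treatment. At an unadjusted p below 0.05 by edgeR there were 2 with AKB and 1 with pyruvate, with no share of all genes counted. In either direction DESeq2 called 3.8% of all genes with AKB and 15.2% with pyruvate. Limma-voom called 1.9% and 1.62%, and edgeR the shares given above. Lists this short can hold 0 at such shares, so these counts do not set the lysosomal and mitochondrial lists apart from other genes. With the GC offset 2 mitochondrial carriers, SFXN3 and SLC25A29, were called higher with AKB, where 4.62% of all genes tested were.

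The ATF4 gene itself fell under both treatments, at a log2 fold change of -0.50 with AKB (edgeR adjusted p = 0.0023) and -0.40 with pyruvate (edgeR adjusted p = 0.0174). ASNS fell by 0.90 on the log2 scale with AKB (edgeR adjusted p = 0.000914) and by 1.19 with pyruvate (edgeR adjusted p = 9.58e-05). The pyruvate values were -0.51 for ATF4 (edgeR adjusted p = 0.000392) and -1.01 for ASNS (edgeR adjusted p = 1.98e-05) without pyruvate replicates 3 and 4. MYC, a transcription factor whose protein is known to act on SLC7A5 and SLC1A5, gave log2 fold changes of 0.06 (edgeR adjusted p = 0.871) and 0.13 (edgeR adjusted p = 0.378).

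Likeness of pattern was measured as Pearson's r of log2 CPM over the 12 libraries, among genes with a mean of at least 5 CPM, as a description in which all genes share the libraries and their depth. For SLC7A5 the 5 highest were DDIT4 at 0.982, CHAC1 at 0.945, METAP1D at 0.933, JUN at 0.930 and CCDC71L at 0.926. The value for DDIT4 was 0.985 without pyruvate replicates 3 and 4. For SLC6A9, whose pyruvate libraries fall into pairs, the genes of most like pattern included TMEM79 at 0.922, NSUN5 at 0.917, SHMT2 at 0.916 and ZNF581 at 0.902. Without pyruvate replicates 3 and 4 their values were 0.903, 0.903, 0.899 and 0.897 in that order.

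The authors' own comparisons list more of the 10 as changed, and more of all genes, than edgeR's fit to all 12 libraries. The same is not true against every other fit. No source used here states what corrections entered those tables, and the difference between them and the fit to the counts was not tested. In the authors' deposited table, with signs turned to treated over untreated, 7 were lower with AKB and 8 with pyruvate at an adjusted p below 0.05, and 0 were higher. Of all genes with an adjusted p in the authors' deposited table, 2.16% were lower with AKB and 4.88% with pyruvate. Between AKB and pyruvate the authors' deposited table lists 1, SLC7A5, at -0.23 with an adjusted p of 0.0254. In that comparison 5.73% of all genes with an adjusted p were lower, and 10% were listed in either direction. The share in either direction is near that of the members, 1 of 10. For SLC43A1 between AKB and pyruvate the authors' deposited table gives 0.09 with an adjusted p of 0.577. SLC7A6 is listed in the authors' deposited table at an adjusted p of 0.793 with AKB and 0.827 with pyruvate, and SLC6A9 at 0.627 and 0.13.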

How the data were processed

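The 12 libraries were grouped by their labels into untreated, AKB and pyruvate, 4 each. Per the labels' protocols, poly(A) RNA was selected and fragmented. The deposited values are estimated counts by gene. Per the submitters' processing notes, the authors used Salmon 1.2.1, R 3.6.3 and DESeq2 1.26.0. No source used here names their genome build. The authors also deposited 3 tables of comparisons with log2 fold changes and adjusted p-values, whose signs were turned where stated. The counts were whole, so rounding changed none. They were tested with edgeR 4.0.16 in R 4.3.3: filterByExpr by group with a minimum count of 10, TMM scaling, and the quasi-likelihood test on all 12 libraries, with Benjamini-Hochberg adjustment over the 13598 genes left and calls at an adjusted p below 0.05. CPM are counts scaled to the TMM-adjusted library size. Gene symbols were matched for 16060 identifiers (90.3%). Coordinates, lengths and GC content came from GENCODE 29 on GRCh38, and GC content was known for 16904 identifiers (95.0%). The GC offset subtracts each library's lowess trend, span 0.3, of log2 CPM on GC content. Ratios of pairs used a pseudocount of 0.5, with an exact permutation test over libraries. Alternatives were DESeq2 1.42.0, limma-voom (limma 3.58.1), other scalings and filters, and fits with fewer libraries. Only the edgeR fit, with and without the GC offset, was run on simulated counts, and its outcome is not reported here. The genes, lists and tests were chosen with earlier results of these data known. Named beyond the 10 are genes of the transporter lists called against untreated, ATF4, ASNS, MYC, the SLC7A5 copies, and genes among the 5 most like SLC7A5 and SLC6A9, of which not all are reported here. The naming of SFXN3, SLC25A29, SLC38A5, SLC7A8, SLC6A6 and of single cell type markers was chosen after their values were seen.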

Additional observations from a re-analysis of the deposited data

Results flagged for a closer look

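In untreated cells SLC7A6 was at 134.3 CPM in replicate 4, while the other 3 libraries lay between 155.1 and 156.0, so that the gap below them made up 0.959 of the group's range, above Dixon's 95% critical value for 4 libraries. The 10 transporters in 3 groups gave 30 groups of 4, and chance flags about 1 in 20 of them.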

How the results depend on the processing

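All 10 transporters had a log2 fold change below 0 with AKB in all 24 settings run, and 8 of 10 did with pyruvate, SLC7A6 and SLC1A5 being the exceptions. The number called with AKB was 7 with the GC offset, 8 with the replicate block and the GC offset together and 7 with the 8 libraries of the comparison alone. The share of all genes called lower was 3.82%, 3.1% and 4.75% in that order. With single libraries left out, 4 to 5 members were called, where 0.246% to 0.774% of all genes were called lower. The number called with pyruvate was 9, 9 and 2 in the order of those fits, where 4.09%, 4.66% and 0.105% of all genes were called lower. It ran from 2 to 7 when single libraries were left out: 2 without untreated replicate 1, 3 without untreated replicate 2, untreated replicate 3 or pyruvate replicate 4, and 7 without pyruvate replicate 1 or 2. The share of all genes called lower moved with it, at 0.225%, 0.224%, 0.24% and 0.32% for those first 4 and 8.87% and 12.2% for the last pair. Between AKB and pyruvate the number called was 1 by DESeq2, 3 with the GC offset, 2 with the block and the GC offset, and 1 without pyruvate replicates 3 and 4. The share of all genes called in either direction was 12.2%, 14.6%, 14.5% and 4.36% in that order. With single libraries left out 0 to 3 were called, reaching 3 without pyruvate replicate 2, where 15.3% of all genes were. The replicate block alone gave 5 with AKB, 7 with pyruvate and 0 between them. With that block 0.346% of all genes were called lower with AKB, 1.9% lower with pyruvate, and 2.62% in either direction between them. The correlation of same-numbered deviations ran from -0.10 to 0.20. A low correlation cannot show that the libraries were not paired, so whether replicate numbers pair them stays unknown.

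Some small values changed sign. SLC7A6 with pyruvate was 0.0234 with the GC offset, 0.0248 with the block added and 0.0544 without pyruvate replicates 3 and 4, and -0.0692 to 0.0217 with single libraries left out. SLC1A5 with pyruvate ran from -0.1339 to 0.0714 with single libraries left out. For AKB over pyruvate, the GC offset alone and with the block gave 0.0229 and 0.023 for SLC7A1, 0.0162 and 0.0155 for SLC3A2, and 0.0536 and 0.0538 for SLC6A9. Without pyruvate replicates 3 and 4 this difference was 0.0251 for SLC3A2, 0.0492 for SLC1A5, -0.0502 for SLC38A1 and 0.3291 for SLC6A9, and for SLC6A9 it ran from -0.2538 to 0.0256 with single libraries left out. With pyruvate, the log2 difference of SLC7A5 over SLC3A2 was -0.0857 without replicates 3 and 4 and ran from -0.0469 to 0.0626 with single libraries left out, and that of SLC38A2 over SLC38A1 ran from -0.0428 to 0.0557. The cause of these shifts was not tested. Over all genes, AKB called 82 lower and 186 higher, and with the GC offset 520 and 628. Pyruvate called 126 and 139, and with the GC offset 556 and 733. AKB against pyruvate called 162 and 264, and with the GC offset 1007 and 973.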
